A study of Homo sapiens with 22 samples.

Results

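Insertions around 7 genes of long noncoding RNA (lncRNA) were examined: NEAT1, MALAT1, GAS5, SNHG1, SNHG5, DANCR and NORAD. They were chosen by name, with earlier results of these data known. The choice was out of 38726 lncRNA and protein-coding genes of the GENCODE annotation, of which 18756 are lncRNA genes. A window was the gene body with 10 kb on either side. The 7 windows held 1263 TTAA sites and 21381 insertions, which is 0.0410% of all insertions. The insertions came from K562 cells, a human leukemia line, that received the donor Barcoded-PBase-SRT-Puro by electroporation and then 11 days of puromycin. The donor is a barcoded self-reporting transposon, whose own RNA carries flanking genomic sequence and so shows where it sits. In 10 libraries the helper that supplies the piggyBac transposase was hyPBase and in the other 10 it was hyPBase-centrip. The sources used here do not say what distinguishes hyPBase-centrip. They do not say that libraries came from separate cultures either, so p-values measure the spread between these libraries. Transfections were combined in threes for RNA, and no factor fused to the transposase is named for these groups.

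PiggyBac transposase inserts its transposon into the tetranucleotide TTAA. Without a fused factor its insertions are known to gather at active promoters and enhancers. The genes differ in what their RNA does. NEAT1 RNA is the scaffold of nuclear bodies called paraspeckles, and MALAT1 RNA collects in nuclear speckles. GAS5, SNHG1, SNHG5 and DANCR are host genes, whose introns carry small nucleolar RNAs (snoRNAs) that guide the chemical modification of other RNAs. NORAD RNA binds Pumilio proteins in the cytoplasm. The data count insertions and not RNA, so whether these transcripts are abundant in K562 cells was not measured.

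On hg38, NEAT1 lies on the plus strand at chr11:65422774-65445540 and MALAT1 on the plus strand at chr11:65497640-65508073. GAS5 is on the minus strand at chr1:173858559-173868882, SNHG1 on the minus strand at chr11:62851978-62855953 and SNHG5 on the minus strand at chr6:85650491-85678932. DANCR is on the plus strand at chr4:52712325-52723623 and NORAD on the minus strand at chr20:36045618-36051018. NEAT1, MALAT1 and NORAD have 1 exon in their canonical transcripts, and GAS5, SNHG1, SNHG5 and DANCR have 12, 11, 6 and 4.

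The TTAA site with the most insertions in each window is shown with its flanks, on the strand of the gene, with the target TTAA in capitals.

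NEAT1: agctcatctctccTTAAatacattcctttc

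MALAT1: tagttggtctactTTAAaaggccacttgaa

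GAS5: aacaacacacttaTTAAatagggaagtgta

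SNHG1: caagcccaggccaTTAAgtcaggaactgga

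SNHG5: cacataaacaactTTAAtaagtagtgcttt

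DANCR: tttctgggagtccTTAAacaggtaaagccc

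NORAD: cagcctcaaggttTTAAagacatctatatg

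On hg38 these lie at chr11:65420359-65420362 for NEAT1, chr11:65498230-65498233 for MALAT1, chr1:173869171-173869174 for GAS5, chr11:62842302-62842305 for SNHG1, chr6:85679771-85679774 for SNHG5, chr4:52711360-52711363 for DANCR and chr20:36052119-36052122 for NORAD. Counted from the annotated start, the NEAT1 site is at -2415 bp, upstream and in no other annotated gene. The GAS5 site is at -292 bp, inside the protein-coding gene ZBTB37, which runs the other way. The SNHG5 site at -842 bp and the DANCR site at -965 bp lie upstream in no other gene. The NORAD site at -1104 bp lies upstream, in an unnamed lncRNA gene of the opposite strand. MALAT1's site is in its exon at 590 bp, where an unnamed lncRNA gene of the opposite strand is also annotated, and SNHG1's is downstream at 13648 bp. Thus 5 of the 7 leading sites lay upstream of the start.

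The stretch that RefSeq lists as the GAS5 promoter is shown because insertions fall in it. It lies upstream of the GENCODE start of GAS5 used here and inside ZBTB37. Its RefSeq sequence (GRCh38.p14, chr1:173868996-173869295, minus strand, printed along the gene) holds 4 TTAA sites, in capitals.

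GAS5 promoter: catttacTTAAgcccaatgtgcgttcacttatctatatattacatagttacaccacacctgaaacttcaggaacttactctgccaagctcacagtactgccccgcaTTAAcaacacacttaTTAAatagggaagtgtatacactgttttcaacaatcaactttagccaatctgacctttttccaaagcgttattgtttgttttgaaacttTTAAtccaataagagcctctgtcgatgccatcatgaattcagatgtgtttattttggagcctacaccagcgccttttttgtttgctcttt

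This stretch received 312 insertions, 310 of them on the strand of GAS5, and so opposite to ZBTB37, and 2 on the other. Of the members, 6 were found in the RefSeq promoter table, all but NEAT1. The SNHG1 promoter has 1 TTAA site, with 5 insertions, and the promoters of MALAT1, SNHG5, DANCR and NORAD have 0. TTAA, which reads the same on both strands, occurs in 46.1% of the 35116 promoters of that length in the table. The GAS5 promoter is 37.7% G or C against a median of 58.7% over these promoters, and the MALAT1 promoter is 73.7%. An insertion density per promoter can therefore be given for GAS5 and SNHG1 alone.

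Depth ranged from 1509672 to 3596762 insertions per library, with medians of 2499130.5 (hyPBase) and 2779460.5 (hyPBase-centrip). Reads per insertion were lower with hyPBase-centrip (median 2.93, range 2.23 to 3.89) than with hyPBase (median 3.74, range 3.01 to 5.39). The windows of known erythroid genes were dense for K562 cells, with 30.5 insertions per TTAA site at GATA1 and 50.6 at TAL1. CDKN2A and CDKN2B, which K562 cells lack, had 1 insertion in 349 sites and 0 in 208. Over the genome there were 2.71 insertions per site. On chromosome 20, neighbouring-numbered libraries of a helper shared insertions at a median of 1.06 times the number that barcodes and sites predict (range 0.995 to 1.13), against 0.978 for its other pairs. Of the insertions on the chromosomes of the members, 99.99% carried 1 of 21 common barcodes. A single site could thus record at most 42 insertions with them in a library, 21 in each orientation.

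Density was taken as insertions per TTAA site, divided by that of the surrounding 1 Mb with the window left out. This ratio asks whether a gene is a local site of insertion, apart from copy number and the density of its region. All 7 windows were denser than their surroundings in 20 of 20 libraries, and 7 of 7 passed the test, at an adjusted p below 0.05. Among all 33901 genes tested, 40.9% were denser and 50.5% sparser. The test was edgeR's quasi-likelihood test with the expected insertions as an offset and Benjamini-Hochberg adjustment over all genes. All log2 values of density here are fitted values with their standard errors (SE).

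SNHG5 was the densest of the 7. Its window had 13.6 insertions per site against 1.58 in the surroundings. The fold over the surroundings ranged from 7.13 to 10.2 in the hyPBase libraries (median 8.42) and from 7.74 to 10.0 in the hyPBase-centrip libraries (median 8.78). The log2 density was 3.10 (SE 0.03, adjusted p = 1.64e-134), which is percentile 99.5 of all genes tested. Its surroundings had the fewest insertions per site of the 7.

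MALAT1 came next by ratio and first by level. With 45.2 insertions per site, its window was the fullest of the 7, in surroundings at 8.29. The fold ranged from 4.44 to 6.55 with hyPBase (median 5.82) and from 4.71 to 6.68 with hyPBase-centrip (median 5.23). The log2 density was 2.45 (SE 0.03, adjusted p = 2.55e-41), at percentile 98.1. Its leading site held up to 36 insertions in a library, with up to 20 in 1 orientation anywhere in the window, close to the 21 that the barcodes allow. The number of barcodes thus bounds the counts at the fullest MALAT1 sites. Other members came near that limit too. In 1 orientation, 1 site of a library held up to 18 insertions in NEAT1 and GAS5, and up to 17 in SNHG5.

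DANCR had 8.63 insertions per site against 2.33 around it. The fold lay between 2.99 and 4.00 in the hyPBase libraries (median 3.70) and between 3.46 and 4.36 in those of hyPBase-centrip (median 3.75), and the log2 density was 1.88 (SE 0.04, adjusted p = 1.82e-88). SNHG1 had 13.3 insertions per site against 4.50. Its fold varied most between libraries for its size, from 1.95 to 3.88 (median 3.28) with hyPBase and from 2.40 to 3.31 (median 2.89) with hyPBase-centrip, at a log2 density of 1.56 (SE 0.05, adjusted p = 3.90e-63). Both host genes were above percentile 90 of all genes, at 95.2 for DANCR and 92.1 for SNHG1.

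NORAD had 11.5 insertions per site against 4.21. Its fold lay between 2.36 and 3.28 with hyPBase (median 2.67) and between 2.32 and 3.15 with hyPBase-centrip (median 2.70), with a log2 density of 1.45 (SE 0.05, adjusted p = 1.84e-66). GAS5 had 13.2 insertions per site against 6.01. The fold was 2.06 to 2.64 with hyPBase (median 2.28) and 1.87 to 2.34 with hyPBase-centrip (median 2.08), and the log2 density 1.14 (SE 0.03, adjusted p = 1.47e-75). In each of these genes the ranges of the helpers overlapped.

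NEAT1 was the least dense by ratio. Its level of 16.5 insertions per site was the second of the 7, but its surroundings held 10.0 per site, the most of any. The fold was 1.30 to 1.88 with hyPBase (median 1.63) and 1.29 to 2.02 with hyPBase-centrip (median 1.56). Its log2 density of 0.71 (SE 0.03, adjusted p = 2.99e-41) was at percentile 77.5. The start of MALAT1 is 74.9 kb from that of NEAT1, and the MALAT1 window supplied 26.1% of the insertions in the surroundings of NEAT1. Against the surrounding 200 kb the log2 density of NEAT1 turned to -0.53 (adjusted p = 5.49e-16), so its direction depends on how much of the neighbourhood is taken in.

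The order of the ratios over the surrounding 1 Mb was steady across libraries at its ends. SNHG5 was above MALAT1, MALAT1 above DANCR and GAS5 above NEAT1 in 20 of 20 libraries. DANCR exceeded SNHG1 in 17 and NORAD exceeded GAS5 in 19. SNHG1 exceeded NORAD in 13 of 20, and their means of 2.98 ± 0.50 and 2.74 ± 0.29 (SD, n = 20) differed by less than the SD of SNHG1. The order belongs to this measure of the surroundings: against the whole chromosome MALAT1 was first at a log2 density of 3.97, NEAT1 stood at 2.51 and SNHG5 at 1.86.

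**Figure D1:**
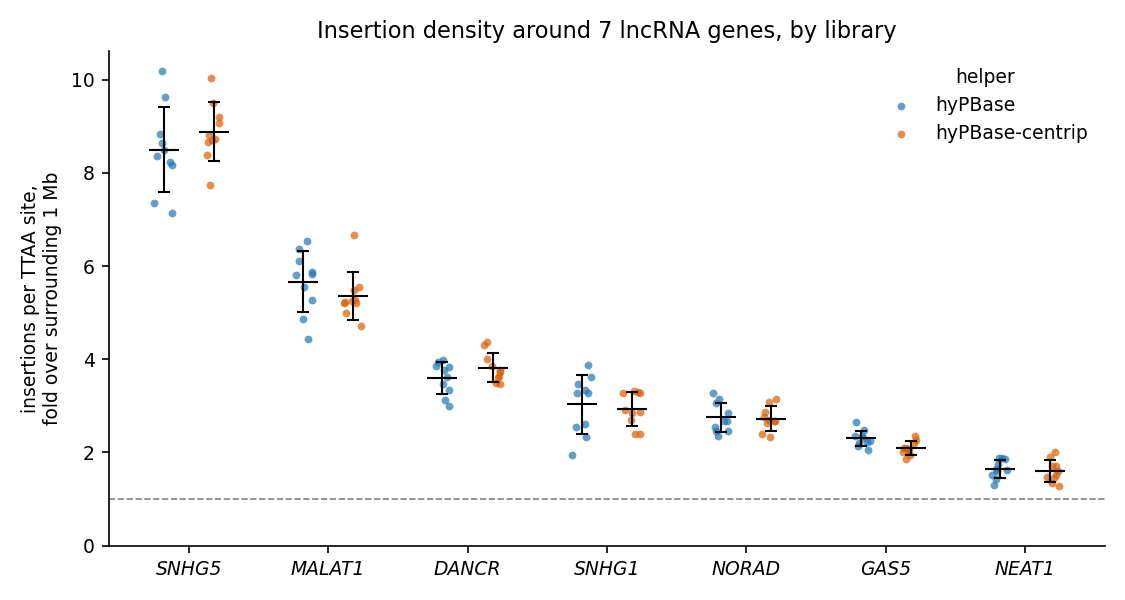
Insertions per TTAA site in each window as a fold over the surrounding 1 Mb (linear axis from 0), 1 point per library, blue for hyPBase and orange for hyPBase-centrip, with the mean and SD of 10 libraries in black. The points of SNHG5 sit between 7.13 and 10.2 and those of NEAT1 between 1.29 and 2.02, all above the dashed line at 1, and the helpers overlap in each gene.

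Other genes of the same kinds were counted beside the 7. Of 21 other snoRNA host lncRNA genes, 20 had enough expected insertions, and 16 were denser and 3 sparser, with a median log2 density of 1.32. SNHG10 was highest at 3.66 and ZFAS1, another snoRNA host, lowest at -0.60. Of 16 other nuclear or regulatory lncRNA genes, 14 were tested, and 10 were denser and 3 sparser (median 1.17). Here TERC, the gene of the telomerase RNA, was highest at 3.05 and KCNQ1OT1, an imprinted antisense RNA, lowest at -0.76. The 7 genes had a median of 1.56, while the median over all genes tested was -0.13 and over all 15648 lncRNA genes tested -0.24.

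**Figure D2:**
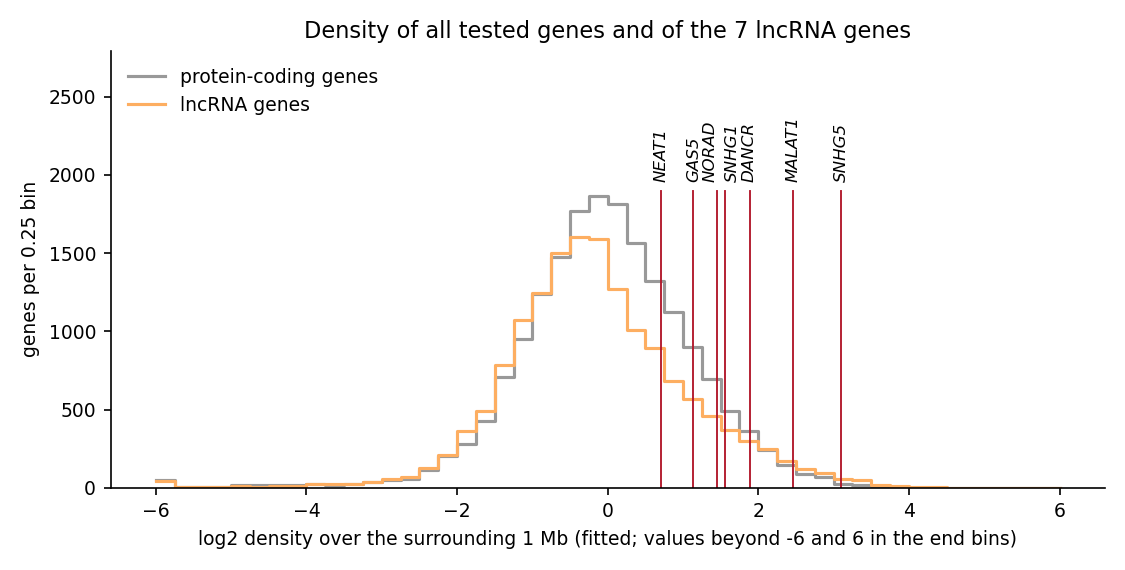
Number of genes (vertical axis) by fitted log2 density over the surrounding 1 Mb (horizontal axis, bins of 0.25), for protein-coding genes in grey and lncRNA genes in orange, with each of the 7 genes as a red line. All 7 lines lie right of 0, from 0.71 for NEAT1 to 3.10 for SNHG5, where the lncRNA median is -0.24.

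The windows were then divided into the 10 kb upstream, the start, the gene body and the 10 kb downstream. Upstream, 6 of 6 genes with at least 5 expected insertions per library passed as denser (40.8% of all genes tested). SNHG5 fell short of that minimum because its surroundings are sparse. With a minimum of 5 expected over the 20 libraries together, chosen after the data were seen, it passed too (38.4% of all genes). The gene body was denser in 5 of the 6 tested (33.3% of all genes), all but NORAD. Downstream, 4 of the 6 tested were denser (32.7% of all genes), and MALAT1 and GAS5 were sparser.

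The upstream 10 kb of SNHG5 had 32.0 insertions per site, a log2 density of 4.33 (SE 0.05, lower minimum). That of MALAT1 had 95.4 per site and a log2 density of 3.52 (SE 0.04). NORAD followed at 2.58 (SE 0.06), GAS5 at 2.05 (SE 0.05), DANCR at 1.82 (SE 0.08), NEAT1 at 1.53 (SE 0.08) and SNHG1 at 1.26 (SE 0.10). Each was above 1-fold in 20 of 20 libraries.

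Within 1 kb of the start, each of the 7 segments expected fewer than 5 insertions per library, a minimum that 1442 genes met and 39.5% of these passed. The lower minimum was therefore used, and 6 of 7 were denser (40.1% of all genes). SNHG5 was highest there, at a log2 density of 5.14 (SE 0.07) over 18 sites, with MALAT1 at 4.48 (SE 0.07) over 5 sites. DANCR stood at 3.88 (SE 0.12), NORAD at 3.85 (SE 0.10), GAS5 at 3.01 (SE 0.08) and SNHG1 at 1.72 (SE 0.19). In GAS5 the first 1 kb of the body had 1 insertion, in 1 site, so its value came from the upstream side, inside ZBTB37. NEAT1 did not differ detectably from its surroundings near the start, at -0.07 (SE 0.22, adjusted p = 0.799), with 48 insertions in 5 sites. Within 2 kb of the start it was denser, at 0.40 (adjusted p = 7.71e-04). Over all genes the median at the start was 0.03.

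Among the gene bodies, DANCR was at 2.51 (SE 0.06), SNHG5 at 2.48 (SE 0.05), MALAT1 at 2.40 (SE 0.03), GAS5 at 1.12 (SE 0.05) and NEAT1 at 0.57 (SE 0.04). The DANCR body is shared with other genes. An unnamed lncRNA gene of the opposite strand covers 73 of its 78 sites, with 990 of its 1039 insertions. LINC01618, a lncRNA gene of the same strand, starts 69 bp past the start of DANCR and holds 1366 insertions of the window. In NORAD, a gene of 1 exon, the body was at -0.15 (SE 0.11, adjusted p = 0.197), with 3.79 insertions per site in 43 sites. The excess in the NORAD window lay on its upstream side. There the leading site alone had 315 insertions, 23.9% of the window, and the 3 fullest sites held more than 50%. An unnamed lncRNA gene of the opposite strand starts 473 bp upstream of NORAD. It covers 37 of the 38 sites in the upstream 10 kb, with 850 of their 955 insertions. SNHG1's body of 15 sites passed under the lower minimum alone (0.71, SE 0.15, adjusted p = 6.10e-06). SNHG1 carried 65.9% of its insertions downstream, at a log2 density of 1.88 (SE 0.06). Many of these lay at the far edge of the window. Its last 1 kb, from 13 kb past the start, had 355 opposite-strand and 53 same-strand insertions in 8 sites, of 778 downstream. MALAT1 downstream fell to -0.40 (SE 0.10, adjusted p = 1.10e-04) and GAS5 to -0.39 (SE 0.08, adjusted p = 3.67e-07).

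The insertions inside host genes were looked at by exon, intron and snoRNA. In the GENCODE canonical transcripts, GAS5 had 77 insertions in 6 exonic sites and 1084 in 81 intronic sites, which is 12.8 and 13.4 per site. DANCR had 10.0 per exonic and 14.8 per intronic site, SNHG5 19.0 and 8.14, and SNHG1 12.3 and 5.64. No order of exon and intron was thus common to the 4 host genes.

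RefSeq places 11 snoRNA genes inside GAS5 (SNORD44, SNORD47, SNORD74 to SNORD81 and SNORA103), and their 14 TTAA sites held 192 insertions. It places 9 inside SNHG1, among them SNORD22 and SNORD25 to SNORD31, with 2 sites and 6 insertions. SNORD50A and SNORD50B in SNHG5 contain 0 TTAA sites, so no insertion could be recorded there. SNORA26, in an intron of DANCR, has 2 TTAA sites, which took 120 insertions, 118 of them on the strand of DANCR. Its first site held 20 insertions with hyPBase and 46 with hyPBase-centrip, and its second 23 and 31. Section 1 of the DANCR body, the first when it is cut into 4 sections of equal length, contains SNORA26 and had 231 same-strand insertions in all.

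Orientation was counted as the strand recorded for the insertion, the same as that of the gene or opposite. The sources used here do not say whether that strand is the one along which the transposon itself is transcribed. Over whole libraries the recorded strands were even, with between 49.8% and 49.9% on the plus strand. All 7 genes departed from even numbers in the fit with each library as its own control. In 4 genes the same strand was in excess, and in 3 the opposite strand. Among all 31858 genes tested, 26.8% had an excess of the same strand and 51.0% of the opposite strand, so a departure was common.

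GAS5 had the largest same-strand share, 75.1% (adjusted p = 1.68e-104). The share in single libraries ran from 69.0% to 78.5% with hyPBase (median 74.4%) and from 67.1% to 81.4% with hyPBase-centrip (median 76.4%). MALAT1 was at 62.6% (adjusted p = 2.04e-74), between 58.5% and 68.2% with hyPBase and between 57.4% and 66.6% with hyPBase-centrip. Both genes were above 50% in 20 of 20 libraries.

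DANCR stood at 57.0% (adjusted p = 5.05e-09) and above 50% in 16 of 20 libraries, and NORAD at 53.3% (adjusted p = 0.0208) and above 50% in 15. The call for NORAD was lost with at least 2 reads per insertion (adjusted p = 0.131). With insertions that differ only in barcode counted once, NORAD turned to the opposite strand (log2 same over opposite -0.05, adjusted p = 0.704).

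In the other direction, SNHG1 had 37.1% (adjusted p = 3.14e-18), below 50% in 20 of 20 libraries. SNHG5 had 42.2% (adjusted p = 8.51e-22), with 1 library above 50%. NEAT1 had 47.5% (adjusted p = 0.0112), with 4 libraries above 50%. Its call was lost, and its direction turned, with at least 2 reads per insertion (log2 0.06, adjusted p = 0.427). The calls for the whole windows of NEAT1 and NORAD thus changed with the way insertions were counted.

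Whole windows joined parts that pointed in different directions. Upstream, 40.8% of all genes tested had a same-strand excess, in the body 16.8% (and 66.0% an opposite one) and downstream 37.2%. The upstream part of GAS5 was 95.8% same strand (adjusted p = 9.26e-172), from 92.7% to 100% with hyPBase and from 90.3% to 98.4% with hyPBase-centrip. Its body was 48.6% and did not pass (adjusted p = 0.351). At sites in no other annotated gene the excess in GAS5 was gone too (log2 -0.07, adjusted p = 0.472). The 10 kb upstream of GAS5 lie within ZBTB37, a protein-coding zinc-finger gene that starts inside GAS5 and runs the other way. Counted against the strand of ZBTB37, the 1365 insertions in it were 95.8% opposite.

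Against their own strand, other protein-coding neighbours were likewise mostly opposite. SLC3A2, which encodes a subunit of amino acid transporters and starts beside SNHG1, had 75.9% of 291 insertions opposite, in 19 of 20 libraries. SYNCRIP, an RNA-binding protein gene downstream of SNHG5, had 97.9% of 140. ERVMER34-1, a retrovirus-derived envelope gene that overlaps DANCR, had 66.8% of 376, and the protein-coding gene ENSG00000271793, which overlaps SNHG5 on its own strand, had 59.4% of 2314. FRMD8, a gene for a membrane-associated protein, reached the NEAT1 window with 8 insertions in 3 sites. All of these are insertions of the members' windows, counted again by the strand of the neighbour, and not separate data. The 291 in SLC3A2 are those of the 10 kb upstream of SNHG1. The 2314 in ENSG00000271793 are those of the SNHG5 body and its downstream 10 kb, and they include the 140 in SYNCRIP. For comparison, the median same-strand share in gene bodies was 32.5% over protein-coding genes and 50.1% over lncRNA genes.

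NEAT1 changed orientation along its length. Upstream it was 87.3% same strand (adjusted p = 8.33e-56), above 50% in 20 of 20 libraries. Its leading site at -2415 bp took 236 insertions, 236 of them on the same strand, with between 4 and 18 in each library. The 1 kb bin that holds it had 314 of the 426 same-strand insertions upstream of NEAT1, while the bin from -7 kb had 45 on the same strand and 32 on the opposite one. Over the gene body the share was 35.2% (adjusted p = 2.98e-36), below 50% in every library. The body was then split into 4 sections of equal length, numbered from the start. In section 1 the share was 68.0% of 596 insertions, in section 2 23.8% of 1141, in section 3 12.5% of 160 and in section 4 2.86% of 70. Section 1 was above 50% in 19 of 20 libraries and section 2 below it in 20. Within section 1 the bin from 0 kb had 2 same-strand and 17 opposite insertions, and the bin from 1 kb 24 and 70. Section 1 holds the short NEAT1 transcript, and the long transcript runs through all 4 sections.

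MALAT1 also changed orientation along its length, but its body was mostly on the same strand until section 4. Its upstream part was even, at 48.1% (adjusted p = 0.0690), and its body was 72.8% same strand (adjusted p = 4.24e-128). The shares in sections 1 to 4 of the body were 75.0%, 69.2%, 81.5% and 31.5%. Downstream, 11.2% of 188 insertions were on the same strand, too few per library for the test. TALAM1, an antisense lncRNA gene annotated within the MALAT1 body, held 2730 insertions, 72.7% of them opposite to TALAM1 and so on the strand of MALAT1.

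DANCR was 86.8% same strand in section 1 of its body and 33.1% in section 3, with 20 and 1 libraries above 50%. The unnamed opposite-strand lncRNA gene in the DANCR body held 990 insertions, 54.8% of them opposite to it and so on the strand of DANCR. SNHG5 was 37.0% in section 1 and 67.0% in section 2. SNHG1 was 75.9% upstream (adjusted p = 1.94e-17) and 20.2% downstream (adjusted p = 3.46e-62), where its fullest site had 134 of 153 insertions on the opposite strand. That site is in the last 1 kb of the SNHG1 window, which held 355 of the 621 opposite-strand insertions downstream. NORAD's upstream part, with most of its insertions, was 56.9% same strand (adjusted p = 3.21e-05). The unnamed opposite-strand lncRNA gene upstream of NORAD held 850 insertions, 54.9% of them opposite to it and so on the strand of NORAD. The sections were compared as descriptions, with no test of their difference.

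**Figure D3:**
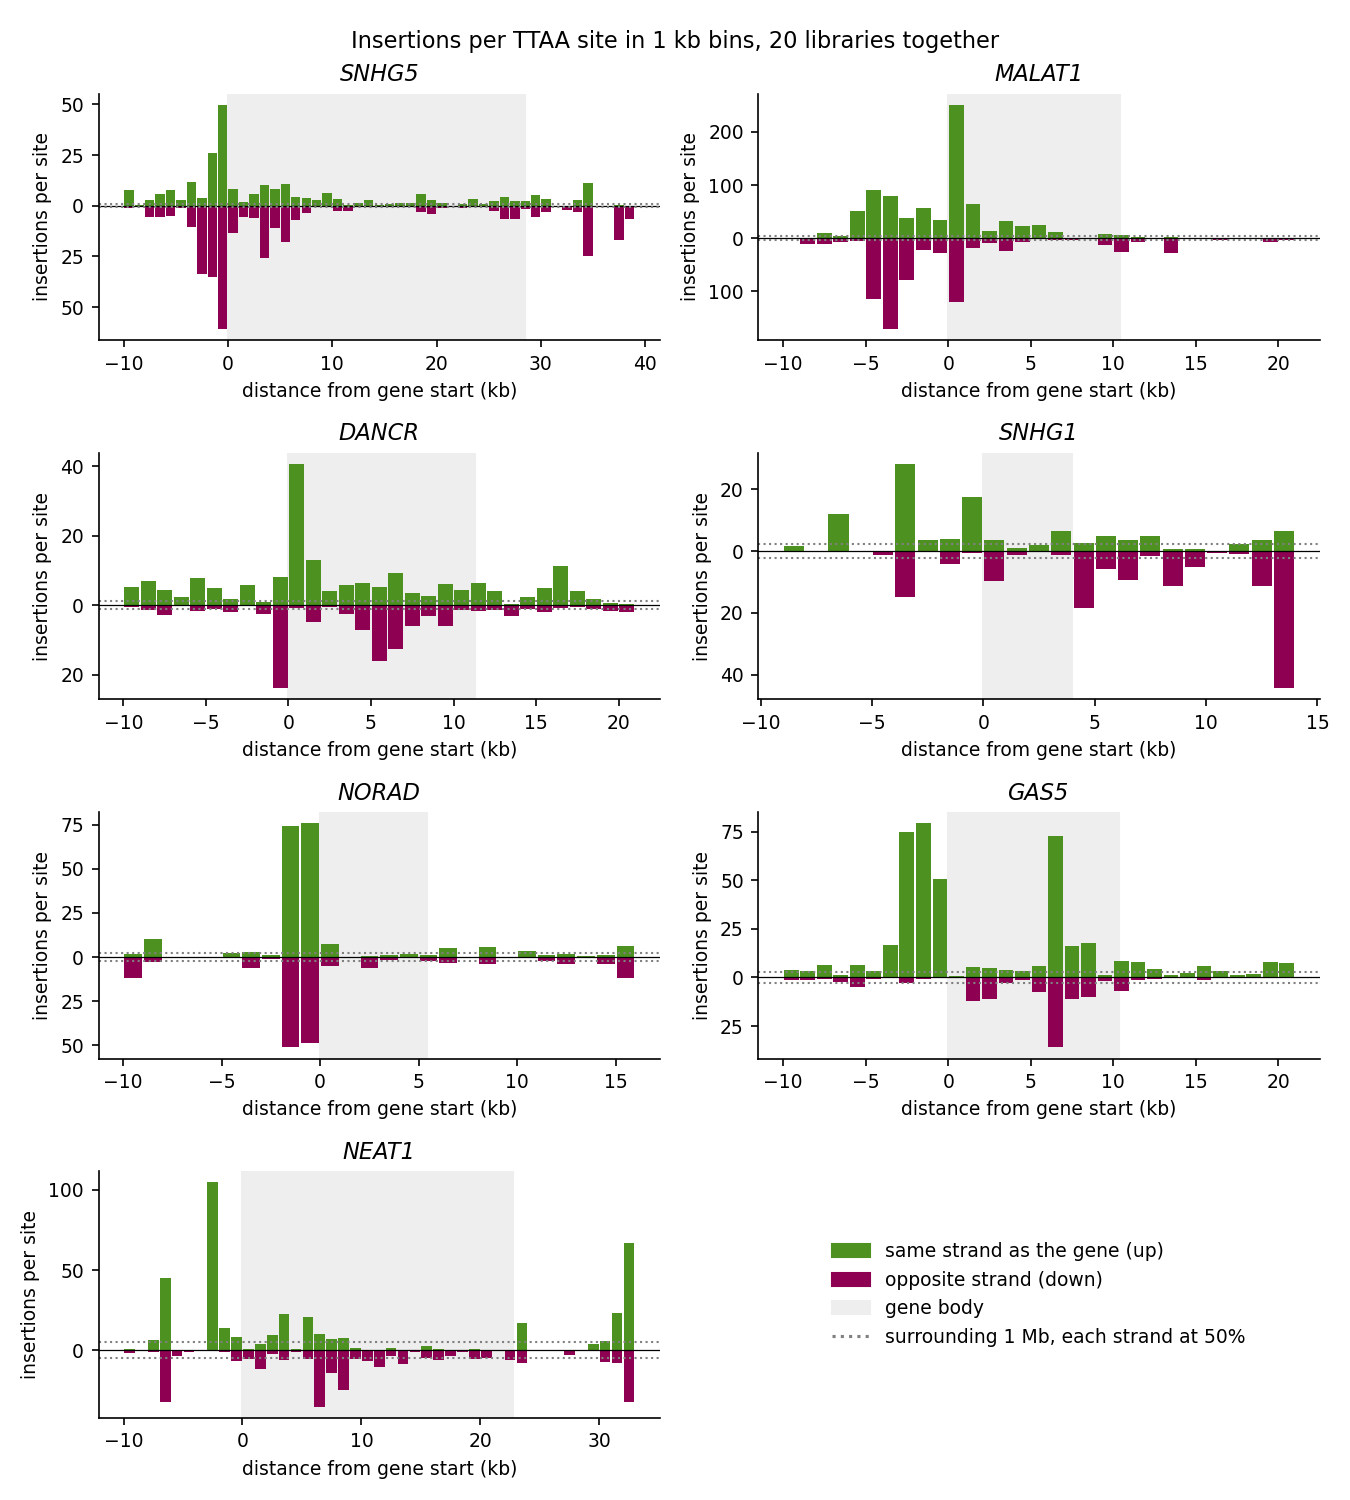
Insertions per TTAA site in 1 kb bins by distance from the annotated start (kb), 20 libraries together, with insertions on the strand of the gene drawn upward in green and on the opposite strand downward in purple; grey marks the gene body and dotted lines the density of the surroundings split evenly between the strands. Upstream of GAS5 the bars are mostly green. NEAT1 has its upstream peak in the bin from -3 kb with 314 insertions on its strand and 0 opposite. The body of NEAT1 is mostly purple in the bins from 0 and 1 kb and mostly green in those from 2, 3 and 5 kb. The bin from 4 kb has 1 insertion on each strand, and from the bin at 6 kb onward the body is mostly purple. NORAD is full upstream and low in its body.

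**Figure D4:**
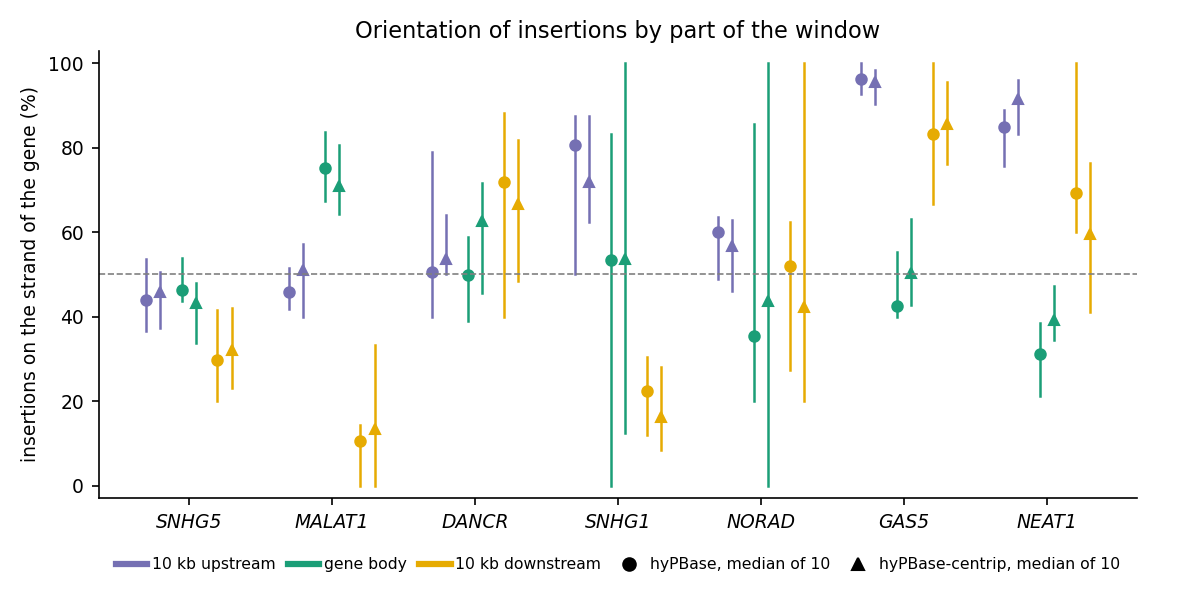
Share of insertions on the strand of the gene (%) upstream, in the body and downstream, with a line from the lowest to the highest of 10 libraries and a circle (hyPBase) or triangle (hyPBase-centrip) at the median. GAS5 upstream lies above 90%, MALAT1 downstream at medians of 10.6% and 13.3%, and parts with few insertions, such as the bodies of SNHG1 and NORAD, spread widely.

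The helpers were then compared, which asks whether hyPBase-centrip places insertions elsewhere than hyPBase. By share of the library, 0 of 7 windows passed edgeR's quasi-likelihood test after adjustment, while 730 genes (2.29% of all tested) did, 1.66% lower and 0.634% higher with hyPBase-centrip. GAS5 had the lowest adjusted p of the 7. It had 52.4 to 66.6 CPM, its insertions scaled to a common library total (median 57.7), with hyPBase and 46.4 to 58.6 (median 52.2) with hyPBase-centrip. Its fold was 0.906 (95% interval 0.843 to 0.974, adjusted p = 0.147). In 5 hyPBase libraries GAS5 was above every hyPBase-centrip library, but the ranges overlapped.

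DANCR pointed the other way, with 28.0 to 38.7 CPM (median 34.4) with hyPBase and 32.0 to 44.6 (median 36.4) with hyPBase-centrip, a fold of 1.08 (95% interval 0.990 to 1.19, adjusted p = 0.437). The intervals of the remaining 5 genes held 1, and those of all 7 lay between 0.843 and 1.19. Relative to the surrounding 1 Mb, 0 of 7 passed as well (1.07% of all genes), with GAS5 at 0.914 (95% interval 0.847 to 0.987, adjusted p = 0.293). DESeq2 gave an adjusted p for 5 of the 7, of which 0 passed, with GAS5 lowest at 0.179, and none for SNHG1 and NORAD.

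**Figure D5:**
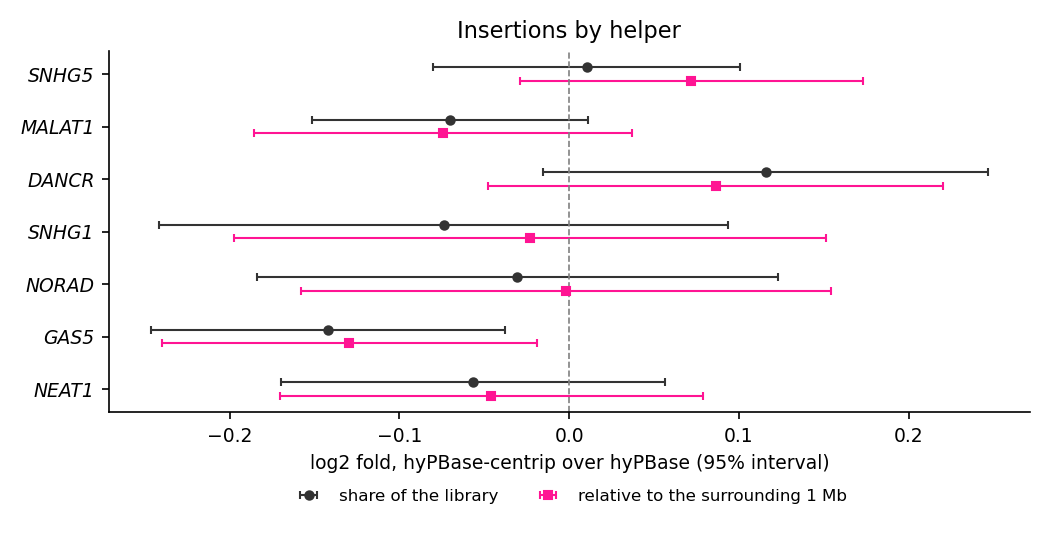
Fitted log2 fold of hyPBase-centrip over hyPBase for each gene with its 95% interval, by share of the library (black circles) and relative to the surrounding 1 Mb (pink squares). The circles lie between -0.14 for GAS5 and 0.12 for DANCR.

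For orientation, 0 of the 7 windows differed between helpers after adjustment (0.593% of all genes). The adjusted p of edgeR's test was 0.150 for DANCR and 0.221 for NEAT1. When the gene body was taken alone, 2 of the 5 genes tested passed (1.36% of all genes). In the body of NEAT1 the same-strand share was 21.1% to 38.5% with hyPBase (median 31.2%) and 34.6% to 47.3% with hyPBase-centrip (median 39.3%), a log2 ratio of the odds of 0.54 (SE 0.13, adjusted p = 0.0133). In that of DANCR it was 38.9% to 58.8% (median 49.9%) and 45.7% to 71.7% (median 62.7%), a log2 ratio of 0.74 (SE 0.18, adjusted p = 0.00898). Both shares were higher with hyPBase-centrip, and the ranges overlapped. Reads per insertion also differed between the helpers, and their part in this was not tested.

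Reads per insertion within the windows were set beside those of the library. MALAT1 exceeded its library in 20 of 20 libraries, with a median ratio of 1.39. NORAD and SNHG5 did so in 19, SNHG1 in 18, GAS5 in 16 and DANCR in 11. NEAT1 exceeded its library in 6 of 20 and had a median ratio of 0.962.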

How the data were processed

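Calling cards libraries of K562 cells were prepared by the authors with 2 helpers, 10 libraries each. RNA was reverse transcribed with oligo(dT), and insertions were read from the junction of transposon and genome. The submitters' processing notes name Trimmomatic, BWA, SAMtools and hg38, without versions. The deposited files hold 1 line per insertion, with its position, strand, barcode and read counts, which the authors did not normalize. Insertions, not reads, were counted here.

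Insertions at TTAA sites were assigned to GENCODE 44 genes with 10 kb on either side. The helper and orientation tests kept genes that reached 10 insertions in 10 or more libraries. For density, at least 10 expected insertions per library on average were required for windows and 5 for segments. Density was fitted in edgeR 4.0.16 (R 4.3.3) with the expected insertions as offset. Expected insertions are the TTAA sites times the insertions per site in the surrounding 1 Mb of that library. Orientation was fitted with same-strand and opposite counts and a term for each library. The helper test used TMM scaling. Quasi-likelihood p-values were Benjamini-Hochberg adjusted over all genes tested, with a threshold of 0.05. DESeq2 1.42.0 was an alternative. Tables and figures were made with Python 3.11.15, numpy 2.4.6, pandas 2.3.3 and matplotlib 3.10.9. The fits were tested on simulated data. For density these had the same spread for every gene, and for orientation counting error alone. They therefore do not show how the p-values hold under the spread of the libraries.

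The 7 genes and the gene lists were chosen with earlier results of these data known. Named by rule were the members, the fullest site of each window, snoRNA genes inside them, overlapping protein-coding genes (1 is not reported here), and the lists' densest, sparsest and helper-called genes. TALAM1, the other overlapping lncRNA genes, the SNORA26 sites and the body sections were chosen after their values were seen. Counts of insertions bear counting error, since molecules cannot be told apart beyond position, strand and barcode. Libraries other than these 20 were not used here.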

Additional observations from a re-analysis of the deposited data

Results flagged for a closer look

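Among 42 groups of 10 libraries (share of the library, fold and orientation of each gene with each helper), 3 had a library far from the others, where chance gives about 1 in 20. In MALAT1 the fold over the surroundings was 6.68 in hyPBase-centrip replicate 1, and the next library was at 5.55. In SNHG1 the same-strand share was 46.4% in hyPBase-centrip replicate 6, with the next at 37.3%. In SNHG5 it was 51.8% in hyPBase replicate 8, with the next at 45.0%, and this was the library above 50%.

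The orientation within the gene body differed between the helpers in NEAT1 (log2 ratio of the odds 0.54) and DANCR (0.74), by edgeR's quasi-likelihood test of the difference, while the whole windows of both genes did not pass. At the SNORA26 sites in the DANCR body, same-strand insertions were the rule with both helpers.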

How the results depend on the processing

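All 7 genes stayed denser than their surroundings under the alternatives that gave a value, except NEAT1 against 200 kb (-0.525). The body of NORAD, tested as a segment, was not denser either (-0.15). Leaving out 1 library moved the mean log2 density of no member by more than its SE. Genes called either way were 30974 of the 33901 tested, 18012 with the gene body alone and 20176 at sites in no other gene. The latter fits tested fewer genes, since the minimum of expected insertions was applied to the body or to those sites. MALAT1 fell to 1.60 and NORAD to 0.72 with barcodes collapsed.

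The helper comparison called 730 genes. It called 469 with at least 2 reads, 33 with barcodes collapsed, 443 with the gene body alone, 114 in odd and 93 in even numbers, 505 to 811 without 1 library each, and 665 with the number as a replicate block. With 2 reads, collapsed barcodes or the body alone, fewer insertions were counted, so fewer genes met the minimum for testing. No fit called a member. Same-numbered libraries of the 2 helpers did not deviate together (correlations from -0.03 to 0.03, 0 of 10 pairs over 0.1, 1 best with its own number). The main fit did not pair libraries by number. Whether same-numbered libraries shared handling was not tested. Log2 values that changed sign were 0.0428 (SNHG1), -0.00343 (SNHG5) and 0.0605 (NORAD) with 2 reads, -0.0488 (SNHG5) with barcodes collapsed, 0.041 (MALAT1) and -0.026 (SNHG5) in odd numbers, 0.0744 (NEAT1) in even numbers, and -0.00752 to 0.0278 (SNHG5) without 1 library each. The local helper difference (362 genes) gave 135 with 2 reads, where SNHG1 (0.0557) and NORAD (0.103) changed sign, and 306 with the block.

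At the start, 1311 of the 1442 genes tested were called, and 24082 of 32621 with the lower minimum. With 2 reads 412 were called, within 500 bp 156 and within 2 kb 7763, where NEAT1 changed sign (0.402). The number of genes tested differed in these fits as well. Orientation called 24770 of 31858 genes tested, 16343 of 19722 in the body, 12707 of 15977 upstream and 10056 of 13627 downstream. Log2 values of opposite sign were 0.0591 (NEAT1) with 2 reads, -0.0519 (NORAD) with barcodes collapsed, -0.0833 (GAS5) in the body, -0.0713 (GAS5) at unshared sites, 2.78 (NEAT1), -0.109 (MALAT1) and 1.66 (SNHG1) upstream, and 0.861 (NEAT1) and -0.303 (NORAD) downstream. The cause was not tested. The lower minimum, the upstream and downstream parts and the unshared sites were added after the data were seen. Few sites, 5 to 18 within 1 kb of a start, limit the values there.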

Other observations

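By helper, 0 of 20 other snoRNA host genes tested and 1 of 14 other nuclear or regulatory lncRNA genes passed. The 1 was MIR17HG, host of a microRNA cluster, at a log2 fold of -0.12 (edgeR quasi-likelihood, adjusted p = 0.0264). In orientation, 9 of the 20 snoRNA hosts had an excess of the same strand and 9 of the opposite strand, and of the 14 others 5 and 8.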
